A study of Homo sapiens with 2 samples.

Results

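The TGF-beta receptors TGFBR1 and TGFBR2, their ligand TGFB1, the signal transducers SMAD2, SMAD3, SMAD4 and SMAD7, the repressor SKIL and the matrix protein CCN2 (earlier named CTGF) were followed after inhibition of miR-19b. These 9 genes were taken by name, with no threshold on their measured values but with earlier results of these data known. They were read by 17 of the 29187 probes of the array, which carry 18821 named genes in all. Hep3B, a human hepatocellular carcinoma cell line, was transfected with an inhibitor of miR-19b (anti-miR-19b) or with a control inhibitor, each at 90 pmol per well, and RNA was collected 24 h later. The RNA of each condition was labeled with 1 dye and hybridized to Human OneArray, which reads mRNA. The deposited values hold 1 array per condition and no replicate, so that no test could be run here. Every difference below describes these 2 arrays. The paper's supplement prints a P-value for each gene it lists as suppressed, and the measurements behind those values are not stated. The inhibitor acted for a short time in a single cell line, and a difference between the cultures, the RNA preparations or the hybridizations cannot be told apart from an effect of the inhibitor, nor can a change of a transcript in every cell from a change in some of the cells.

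TGF-beta is a secreted cytokine that stops the growth of many epithelial cells, hepatocytes among them, and drives the production of matrix in the injured liver. It binds TGFBR2, a serine/threonine kinase that recruits and activates TGFBR1, which in turn phosphorylates SMAD2 and SMAD3. These enter the nucleus with SMAD4 and switch on target genes. Among the targets are SMAD7 and SKIL, which restrain the pathway, and CCN2, which binds growth factors and matrix. TGFBR2 and CCN2 have been reported as targets of miR-19, which lowers the mRNA or the translation of the transcripts it binds.

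The microRNA that was inhibited is shown with the other main products of its cluster, because they group by seed, the bases 2 to 8 that pair with a target, and members of a seed family can bind the same sites. The mature sequences were taken from RefSeq (GRCh38.p14), 5′ to 3′, with the seed in capitals.
hsa-miR-19b-3p: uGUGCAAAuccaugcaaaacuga
hsa-miR-19a-3p: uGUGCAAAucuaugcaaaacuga
hsa-miR-17-5p: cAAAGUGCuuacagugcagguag
hsa-miR-20a-5p: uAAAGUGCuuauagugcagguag
hsa-miR-18a-5p: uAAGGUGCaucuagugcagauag
hsa-miR-92a-3p: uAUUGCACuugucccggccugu
The miR-19b and miR-19a sequences have the same seed and differ by the single substitution C11U, counted from the 5′ end with the base of miR-19b first. In the same way miR-17 and miR-20a share a seed, while the seeds of miR-18a and miR-92a are each found in 1 of these 6 sequences. The cluster lies on the plus strand of chromosome 13, with mature miR-19b at chr13:91351245-91351267, and an identical mature miR-19b is encoded on the minus strand at chrX:134169683-134169705. The arrays do not read mature microRNAs. MIR17HG, the host transcript of the cluster, was read at 434 with the control inhibitor and 763 with anti-miR-19b, over 1.5-fold higher (log2 ratio 0.81, percentile 99.8 of the 500 probes nearest in level), which does not show how far mature miR-19b was inhibited.

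The deposited intensities are normalized and on a linear scale. Each probe was summarised by its log2 ratio, anti-miR-19b over control, which could be formed at the 26186 probes with positive values throughout and had a median of 0.03 over them. Probes whose mean level lay at or above the median of these probes (an intensity of 41.4) are called bright and the others dim. The log2 ratio had a middle spread (the distance from percentile 16 to 84, divided by 2) of 0.26 at bright and 0.87 at dim probes. The labelled cell type was checked with markers. Of 11 hepatocyte or hepatoma genes with a probe, 11 had a probe at or above an intensity of 41.4 on both arrays, with albumin, alpha-fetoprotein and FOXA2 among them. The counts were 2 of 4 leukocyte, 1 of 3 endothelial and 1 of 5 stellate or fibroblast genes. This check is coarse, because the level is the median of the compared probes. The highest leukocyte gene (418 with the control inhibitor, 353 with anti-miR-19b) lay above the lowest hepatocyte gene (67.2 and 68.6).

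The ratios of the 9 genes were spread about as widely as those of probes of like brightness. Of their 17 probes, 0 were over 1.5-fold higher with anti-miR-19b and 1 was over 1.5-fold lower. The shares of all compared probes were 13.8% and 12.0%, from equal numbers of bright and dim probes, whereas 12 of the 17 were bright. All 12 bright probes of the 9 genes were within 1.5-fold. Of all bright probes 2.41% were over 1.5-fold higher and 1.05% lower, so that 0 of 12 is near the share over all. The log2 ratios of the 12 ran from -0.31 to 0.50 with a median of -0.03, against 0.03 for all bright probes. Of these ratios 6 were above and 6 below 0. The ratio of each probe was given a percentile among the 500 others of nearest mean level, and percentile 16 to 84 is called the middle range. Of the 17 probes 6 (35.3%) lay outside it, against 31.9% of all probes, with 3 above it and 3 below. As whole genes, with a gene taken as the mean of its probes, 4 were above and 5 below 0, and the median log2 ratio was -0.01 (0.03 over all genes). Of the 9 gene means 0 passed 1.5-fold, where 12.4% of all genes were higher and 10.8% lower by that much. Those shares include genes read by dim probes alone, whereas 7 of the 9 had a bright probe.

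**Figure D1:**
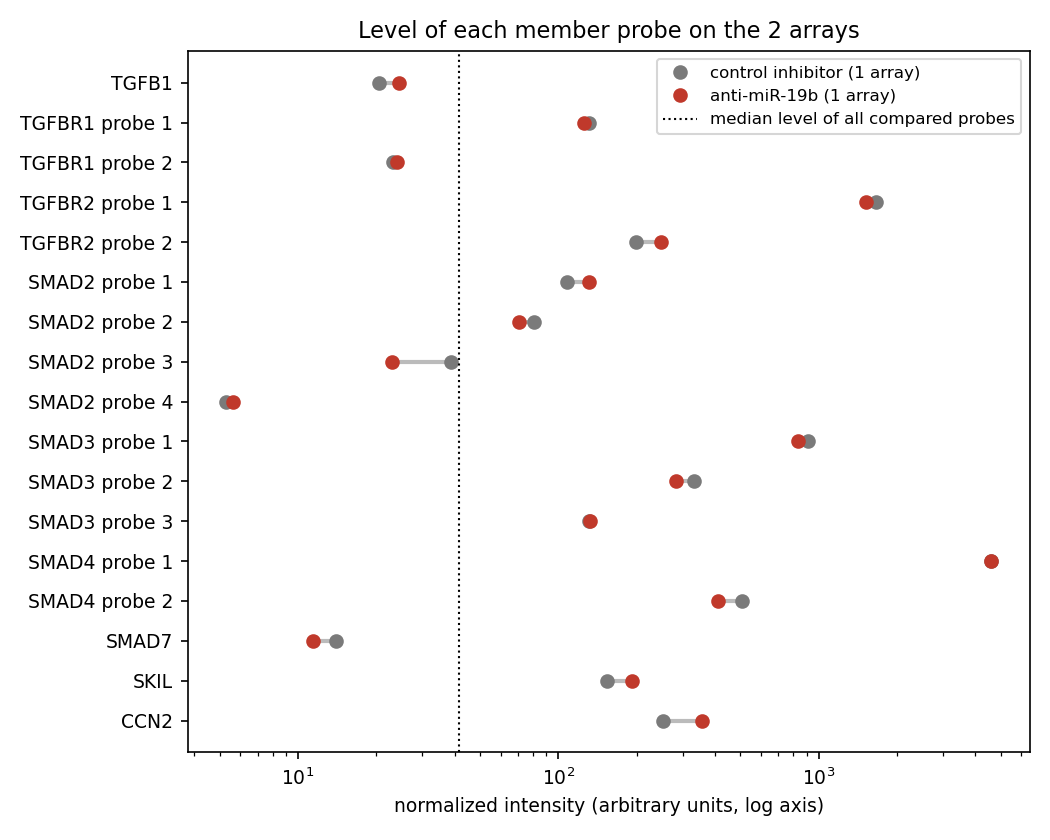
Normalized intensity (log axis) of each of the 17 probes on the control array (grey) and the anti-miR-19b array (red), with probes of one gene numbered from the brightest and the dotted line at the median level of all compared probes, 41.4. For most probes the points nearly coincide, and the longest line on this axis belongs to a dim SMAD2 probe, at 38.6 and 23.0.

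TGFB1, the ligand, was read by 1 dim probe, at 20.5 with the control inhibitor and 24.4 with anti-miR-19b. The log2 ratio was 0.25, at percentile 64.0 of the nearest probes, whose middle range ran from -0.41 to 0.66. The ligand was thus well inside the scatter of probes of its brightness.

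TGFBR1, the type I receptor that phosphorylates SMAD2 and SMAD3, had a bright probe at 132 with the control inhibitor and 125 with anti-miR-19b (log2 ratio -0.07, percentile 34.4). Its dim probe was at 23.2 and 23.9 (0.05, percentile 44.4). Both probes were inside the middle range of their neighbours, and both levels were nearly the same on the 2 arrays.

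TGFBR2, the type II receptor that binds TGF-beta, was read by 2 bright probes that went opposite ways. The probe PH_hs_0047904 was at 1663 with the control inhibitor and 1515 with anti-miR-19b, a log2 ratio of -0.13 at percentile 24.2, inside the middle range of -0.19 to 0.27. The probe PH_hs_0004687 was at 199 and 248, a log2 ratio of 0.32 at percentile 88.0, just above the middle range of -0.22 to 0.29. Their mean was 0.09, and the direction of this reported miR-19 target therefore depended on the probe that was read. The difference of 0.45 between the probes is not rare on these arrays: among 1629 genes with exactly 2 bright probes the median difference was 0.24, and 20.6% of them differed by as much as TGFBR2 or more.

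SMAD2, a receptor-activated SMAD, was read by 4 probes. Its bright probes were at 108 with the control inhibitor and 131 with anti-miR-19b (log2 ratio 0.28, percentile 80.2), and at 80.5 and 70.9 (-0.18, percentile 23.0). A dim probe was the only one of the 17 past 1.5-fold: it was at 38.6 with the control inhibitor and 23.0 with anti-miR-19b, 1.68 times lower (log2 ratio -0.74, percentile 5.80, middle range -0.36 to 0.70). The remaining dim probe lay near the floor, at 5.29 and 5.61 (0.08, percentile 56.2). The other SMAD2 probes, at -0.18 to 0.28, did not share the low ratio of this dim probe, and the mean over the 4 was -0.14.

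SMAD3, the other receptor-activated SMAD of the TGF-beta branch, had 3 bright probes. The levels with the control inhibitor and with anti-miR-19b were 910 and 831 at one (log2 ratio -0.13, percentile 31.2), 332 and 282 at the next (-0.23, percentile 15.0) and 131 and 133 at the last (0.02, percentile 46.6). The ratios spanned 0.25, the narrowest span among the 4 members with more than 1 bright probe (TGFBR2, SMAD2, SMAD3 and SMAD4), and the lowest lay just under its middle range, which began at -0.22.

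SMAD4, the common partner of the receptor-activated SMADs, was at 4594 with the control inhibitor and 4609 with anti-miR-19b at one probe, a log2 ratio of 0.00 at percentile 50.2. The other was at 507 and 410, a log2 ratio of -0.31 at percentile 5.40, below the middle range of -0.18 to 0.29. This was the lowest ratio among the 12 bright probes. As for TGFBR2, the probes of SMAD4 did not give the same answer, and 37.0% of the genes with exactly 2 bright probes had probes as far apart or farther.

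**Figure D2:**
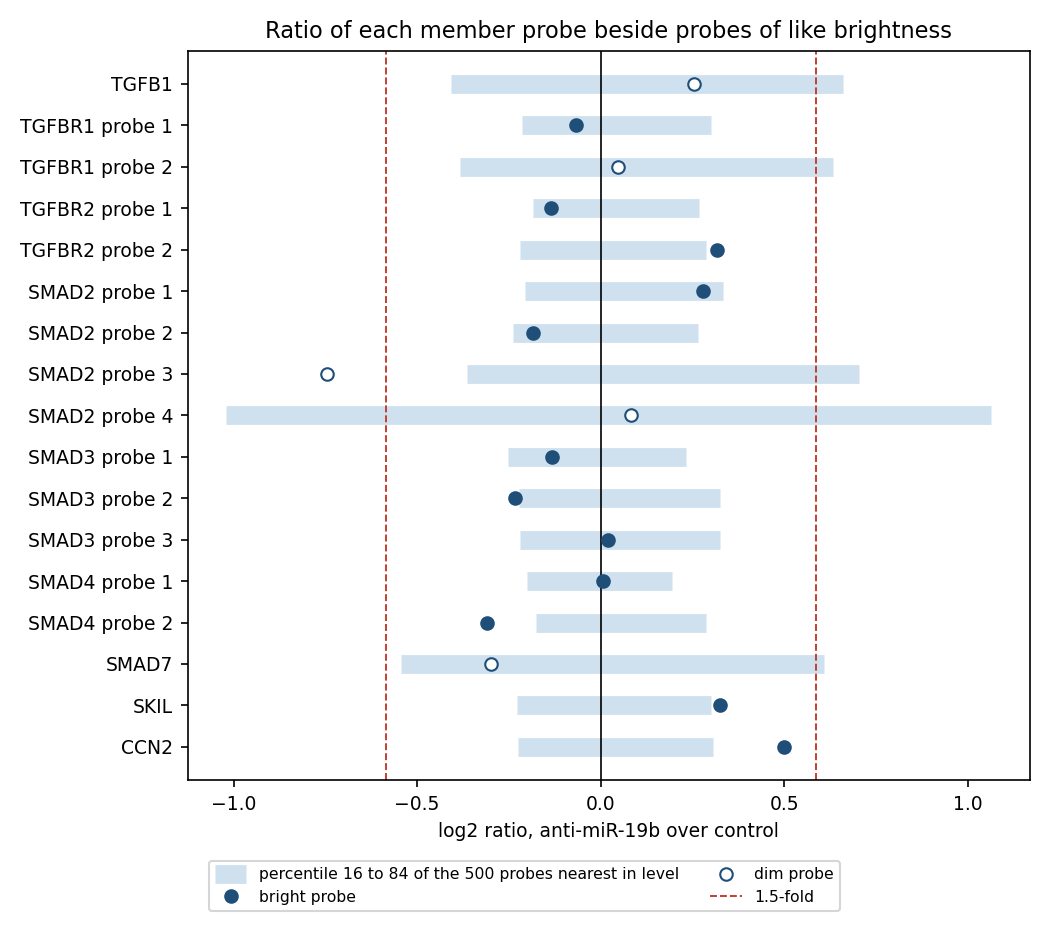
Log2 ratio, anti-miR-19b over control, of each of the 17 probes (filled, bright; open, dim). The bars run from percentile 16 to 84 of the 500 probes nearest in level, probes of one gene are numbered from the brightest, and the dashed lines mark 1.5-fold: CCN2 at 0.50 stands farthest to the right, and only a dim SMAD2 probe, at -0.74, lies past a dashed line.

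SMAD7, which blocks the type I receptor and is itself switched on by the pathway, was read by 1 dim probe, at 14.0 with the control inhibitor and 11.4 with anti-miR-19b (log2 ratio -0.30, percentile 28.4). At this brightness the middle range ran from -0.54 to 0.61 and held the SMAD7 ratio.

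SKIL, which encodes SnoN, a repressor that binds SMAD proteins, had 1 bright probe, at 153 with the control inhibitor and 192 with anti-miR-19b. The log2 ratio of 0.32 stood at percentile 86.6, just above the middle range of -0.23 to 0.30. Both feedback inhibitors are induced by TGF-beta in many cells, and here their probes lay on opposite sides of 0.

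CCN2 had the highest ratio of the 9 genes. Its 1 bright probe was at 253 with the control inhibitor and 358 with anti-miR-19b, 1.41 times as high. The log2 ratio of 0.50 stood at percentile 95.6 of the 500 nearest probes, above their middle range of -0.23 to 0.30 and below the 1.5-fold threshold of 0.58. No other CCN2 probe was read, so that the agreement between probes could not be examined for this gene.

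The CCN2 promoter is shown because CCN2 stood highest and has been described as a gene that SMAD proteins and TEAD factors, the DNA-binding partners of YAP, both switch on. The sequence is from RefSeq (GRCh38.p14, chr6:131951323-131951622, minus strand) and runs 5′ to 3′ from 250 bases before to 50 bases after the start of the gene. Capitals mark the letters CAGAC, the SMAD box, and GGAATG, the TEAD motif, which were searched on both strands.
CCN2: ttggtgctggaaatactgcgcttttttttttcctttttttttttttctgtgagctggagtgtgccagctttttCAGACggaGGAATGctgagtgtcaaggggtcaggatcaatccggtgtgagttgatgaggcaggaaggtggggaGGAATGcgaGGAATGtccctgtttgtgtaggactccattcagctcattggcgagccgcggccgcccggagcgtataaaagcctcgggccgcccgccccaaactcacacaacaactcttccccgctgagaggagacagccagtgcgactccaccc
The window holds CAGAC 1 time, starting 177 bases before the gene, and GGAATG 3 times, starting 169, 104 and 95 bases before it, with no overlap between the motifs. CAGAC was found in 45.3% of 35116 promoter windows of this length. GGAATG was found in 14.0% of them, and 3 times or more in 0.128%. A match describes the letters and does not show that a factor was bound in these cells.

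Taking the 5 members with several probes together (TGFBR1, TGFBR2, SMAD2, SMAD3 and SMAD4), in 0 of 5 did all probes lie on the same side of 0, although one probe each of SMAD3 (0.02) and SMAD4 (0.00) was only marginally above it. Of the 1629 genes with exactly 2 bright probes, 43.2% had them on opposite sides. That share can be set beside the bright probes of TGFBR2, SMAD2 and SMAD4 alone, and not beside the count for all 5. SMAD2 was also read by dim probes, TGFBR1 by a bright and a dim probe, and SMAD3 by 3 bright probes. More probes, or dim ones, make mixed sides likelier. The other 4 members, TGFB1, SMAD7, SKIL and CCN2, were each read by 1 probe, and the widest ratios among the bright probes, 0.50 for CCN2 and 0.32 for SKIL and TGFBR2, belong in part to genes with no other probe to set beside them.

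**Figure D3:**
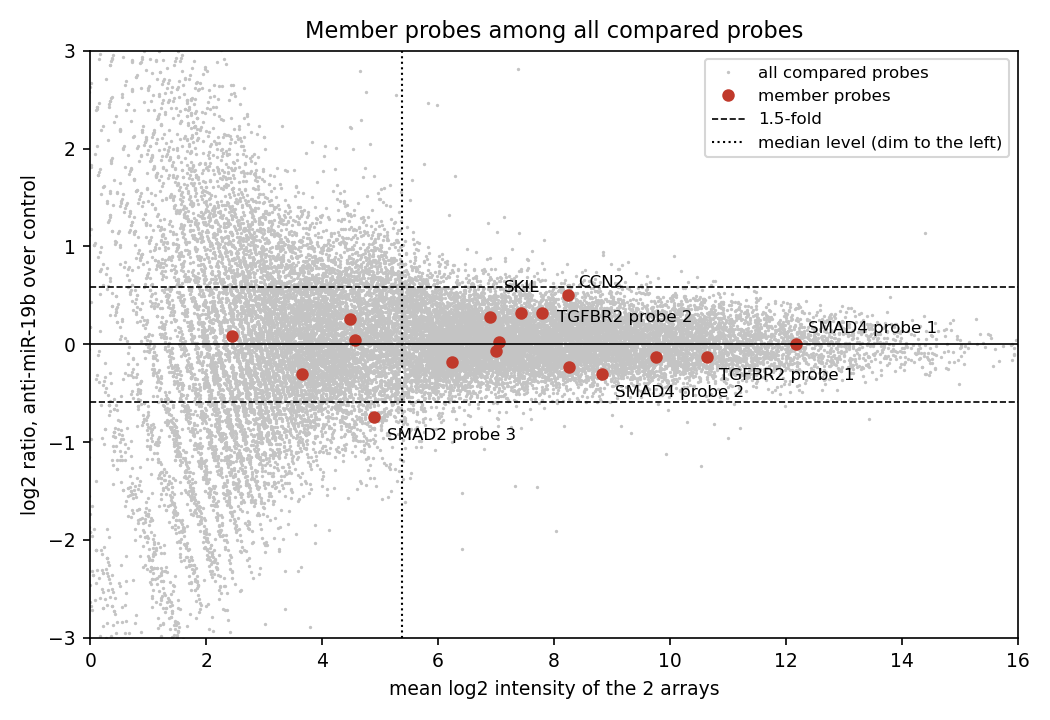
Log2 ratio against mean log2 intensity for all compared probes (grey) and the 17 probes of the 9 genes (red), with dashed lines at 1.5-fold and the dotted line at the median level; 717 probes beyond a log2 ratio of 3 either way or outside a log2 level of 0 to 16 are not drawn. The grey cloud widens to the left, and the red points lie within it at every brightness.

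The rest of the pathway was read in the same way from a list of 76 genes, of which 74 had a named probe and 70 could be compared. As gene means, 6 passed 1.5-fold upward, 5 passed it downward and 59 did neither, with a median log2 ratio of 0.05, beside 12.4% and 10.8% of all genes. Of these 11 genes 9 had no bright probe, and in ACVR1B and EP300 a dim probe moved the mean while the bright probe was within 1.5-fold (log2 ratios 0.15 and 0.01). At the 65 bright probes of the list, 0 were over 1.5-fold higher and 0 lower, and the log2 ratios ran from -0.53 to 0.58.

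Upstream of the receptors, 13 genes of ligands and their latency were compared, and 12 were within 1.5-fold. The 1 other was higher, beside 12.4% of all genes. The highest was LTBP4, which holds latent TGF-beta in the matrix, at a dim probe near the floor (2.03 with anti-miR-19b, log2 ratio 1.02, percentile 60.2). The lowest was LRRC32, which displays latent TGF-beta on cells, also at a dim probe (11.0 and 8.07, log2 ratio -0.45). At bright probes the lowest ratio was that of GDF11, an activin-like ligand, at 79.2 and 55.0 (-0.53, percentile 2.80), and the highest that of THBS1, which releases active TGF-beta, at 78.9 and 96.4 (0.29, percentile 80.6). FURIN, the protease that cleaves the TGF-beta precursor, was at 719 and 569 (-0.34, percentile 4.40), and GDF15, a distant member of the family, had bright probes at 1165 and 862 (-0.43, percentile 2.80) and at 5394 and 5406 (0.00, percentile 49.2).

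Among 8 compared receptors and co-receptors of the superfamily, 8 gene means were above 0. ACVR1 (9.91 and 16.2, a dim probe) and ACVR1B were over 1.5-fold higher, 2 of 8 beside 12.4% of all genes. The shared direction of the means did not hold at the brightest probe of each gene. There TGFBR3 (-0.20), ACVR2A (-0.16), BMPR2 (-0.05) and ACVR2B (-0.01) were below 0. ACVR1 (0.71), BAMBI (0.56), BMPR1B (0.25) and ACVR1B (0.15) were above it. The median of the group was 0.43 over genes and 0.07 over its 10 bright probes. ACVR1 was read by a dim probe alone, and in ACVR1B, ACVR2A and BMPR2 the dim probe had the higher ratio, while TGFBR3, ACVR2B, BMPR1B and BAMBI were read by bright probes alone. The lowest mean was that of BMPR1B (0.09). The highest of the bright probes was that of BAMBI, a pseudoreceptor that dampens TGF-beta signaling, at 95.8 with the control inhibitor and 141 with anti-miR-19b, a log2 ratio of 0.56 at percentile 95.8. TGFBR3, the co-receptor that presents ligand to TGFBR2, had bright probes on opposite sides of 0, with log2 ratios of 0.40 (77.9 and 103) and -0.20 (171 and 149). ENG and ACVRL1, receptors of endothelial cells, were at or below 0 on at least 1 array at each probe and have no ratio.

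In the SMADs of the neighbouring BMP branch and SMAD6, 1 of 4 was over 1.5-fold higher, beside 12.4% of all genes. It was SMAD9, at a dim probe (3.82 and 6.34). The lowest mean was that of SMAD1 (-0.55), whose 2 probes were both dim. SMAD5 had 283 and 331 at one bright probe (log2 ratio 0.22) and 266 and 271 at the other (0.03), and SMAD6, an inhibitory SMAD like SMAD7, had 102 and 109 (0.10). The 3 bright probes of this group were thus above 0, all inside the middle range of their neighbours.

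Among 8 adaptors and cofactors, CREBBP had the highest gene mean (0.55) and EP300 the lowest (-0.64). Both are histone acetyltransferases that SMAD proteins recruit, and in both the dim probe lay farther from 0: the bright probe gave 0.19 for CREBBP (3672 and 4187) and 0.01 for EP300 (109 and 110). Of 11 restraints of the pathway, 10 were within 1.5-fold and 1 was higher, beside 12.4% of all genes. PMEPA1, a TGF-beta target that sequesters SMAD proteins, was over 1.5-fold higher at a dim probe (5.49 and 13.2, log2 ratio 1.26, percentile 96.6), and NEDD4L, a ubiquitin ligase, had the lowest mean (-0.08). All 4 deubiquitinases were within 1.5-fold, from USP4 (615 and 497, log2 ratio -0.31) to USP11 (321 and 355, 0.14). Of all genes, 12.4% were higher and 10.8% lower by that much.

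Of 18 compared genes that TGF-beta induces or represses, 0 were over 1.5-fold higher and 2 lower, beside 12.4% and 10.8% of all genes. The 2 were the collagen genes COL1A2 and COL4A1. Both were read by dim probes alone, COL4A1 at 18.8 with the control inhibitor and 1.87 times lower with anti-miR-19b, and COL1A2 at 9.04 and 1.88 at one probe and 4.89 and 6.43 at the other. The highest was MYC, which TGF-beta represses in epithelial cells, at 126 and 189 (log2 ratio 0.58, percentile 96.8), just within the threshold. The 17 bright probes of this group had a median log2 ratio of -0.04. At bright probes CDKN1A, a growth arrest gene, was at 652 and 526 (-0.31), TGFBI at 219 and 213 (-0.04), KLF10 at 498 and 485 (-0.04) and FN1, which encodes fibronectin, at 12327 and 11550 (-0.09). ID2, a BMP and TGF-beta responsive inhibitor of differentiation, was at 2000.1 and 2678 (0.42, percentile 97.4). Of the related ID genes, ID1 was at 7575 and 9191 (0.28, percentile 94.6). ID3 had bright probes at 4428 and 5281 (0.25, percentile 90.8) and at 141 and 136 (-0.05). The group holds both induced and repressed genes, so that ratios on both sides of 0 and their pooled median give no direction of the pathway. ID1, ID2, ID3, TGFBI, KLF10, CDKN1A, FN1 and COL4A1 were named after their values had been seen. So were GDF11, GDF15, FURIN, THBS1, BAMBI, TGFBR3, ACVR1B, ACVR2A, ACVR2B, BMPR2, ENG, ACVRL1, SMAD5 and SMAD6 above, and CCN3, CCN4 and CCN5 below.

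The other CCN proteins were mostly too dim to set beside CCN2. CCN5 was the only one with a bright probe, at 159 with the control inhibitor and 127 with anti-miR-19b (log2 ratio -0.33, percentile 6.60), opposite in direction to CCN2. CCN1 was at 7.30 and 17.0 (1.22, percentile 97.2), CCN4 at 8.77 and 3.03 (-1.53) at one probe and CCN6 at 7.43 and 0.54 (-3.77), all at dim probes, and CCN3 had no ratio, being below 0 with anti-miR-19b. The other CCN4 probe also had no ratio and ran the opposite way, from below 0 with the control inhibitor to 6.92 with anti-miR-19b.

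**Figure D4:**
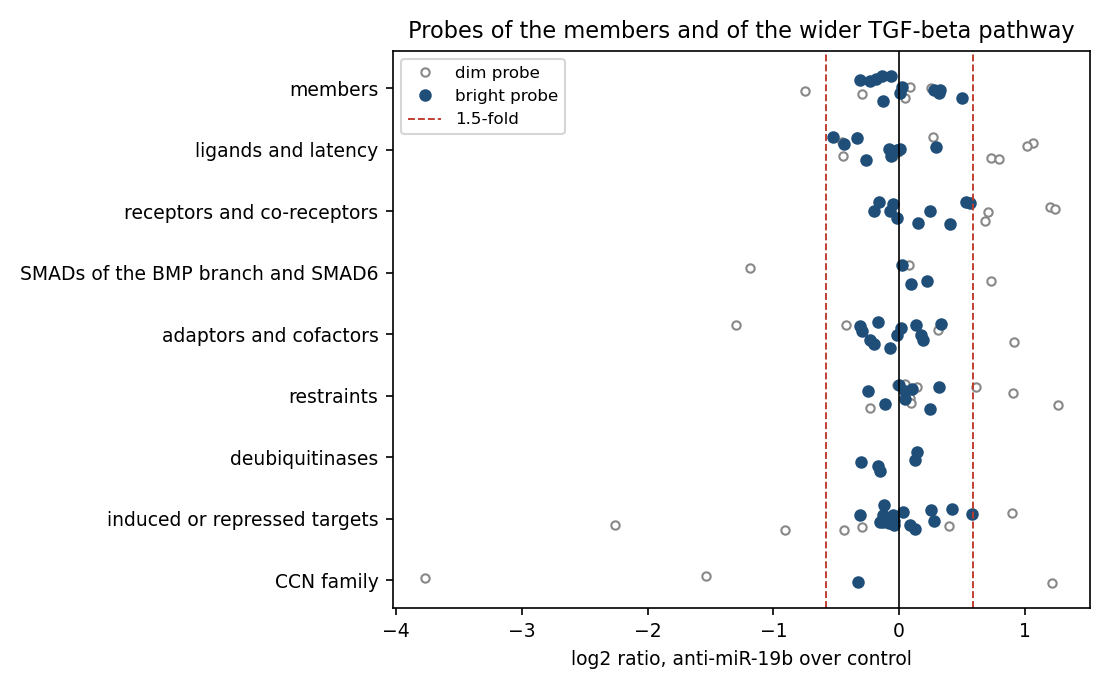
Log2 ratio, anti-miR-19b over control, of each compared probe of the 9 genes (top row) and of the wider pathway by group, bright probes filled and dim probes open, spread vertically for legibility. The filled points of every row lie between the dashed lines at 1.5-fold, and each point beyond them is open.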

How the data were processed

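For RNA of Hep3B cells given anti-miR-19b or the control inhibitor, the deposited values hold 1 array each. The values the authors deposited from these Human OneArray hybridizations are normalized intensities, linear in scale, with some below 0. Their normalization and background correction were not given in the sources used here, and the labels and the methods name different dyes (Cy5 and fluorescein). Precision is limited by the number of arrays.

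Of 29187 probes, 25053 carried 1 gene symbol, updated by Entrez ID where the ID was found in a RefSeq gene table (24981 probes). The other 4134 carried no symbol or several, and were given no gene. The 3001 probes at or below 0 on an array were left out of the ratios. A gene was the mean over its probes. The paper's threshold of 1.5-fold was used, with no test. The P-values that the paper prints beside its suppressed genes were not used here. The percentile and middle range of the 500 nearest probes are descriptions and no replicate error. Apart from the coarse marker check, intensities of different probes were not compared as transcript levels.

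The 9 members, the pathway list and the rule for named genes were chosen with earlier results of these data known. The rule named every member probe, MIR17HG, the highest and the lowest gene of each pathway group, and pathway genes over 1.5-fold at a bright probe, of which there were 0. Other genes were named after their values had been seen, as stated beside them. Listed genes without a named probe were not analysed here. The alternatives were centring, quantile normalization, removal of a loess trend (fraction 0.3), bright probes alone, an offset of 50, the brightest probe of a gene and a 2-fold threshold. The steps were tested on simulated data. Computation used pandas 2.3.3, numpy 2.4.6, statsmodels 0.14.6 and scipy 1.17.1 under Python 3.11.15, and figures used matplotlib 3.10.9.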

Additional observations from a re-analysis of the deposited data

How the results depend on the processing

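No paired analysis was possible because a single deposited array stood for each inhibitor. The count of member probes over 1.5-fold higher was 0 in each setting run for it, which leaves out the choice of the brightest probe of a gene. The 1 lower probe, of SMAD2, was no longer counted with bright probes alone, with an offset of 50 or at 2-fold (0 in each). In the wider pathway 6 genes higher and 5 lower became 0 and 0 with bright probes alone, 0 and 0 with the offset and 3 and 2 at 2-fold, and the lower count was 3 at the brightest probe of each gene. By construction these settings drop or shrink dim probes or raise the threshold. The median log2 ratio of the 9 genes lay between -0.08 (quantile normalization) and 0.05 (bright probes alone), so that its sign was not stable. The mean of TGFBR2 turned to -0.13 at its brightest probe, that of SMAD4 to 0.00, and that of SMAD2 to 0.28 at its brightest probe and 0.05 over bright probes. CCN2 (0.43 to 0.50) and SKIL (0.25 to 0.32) stayed above 0 in every setting run for them, which is not a sign of stability. Each was read by 1 bright probe, so that bright probes alone and the brightest probe return the same value by construction. An offset cannot turn a sign, and for these 2 genes only the normalizations could have done so. The offset moved TGFB1 to 0.08 and SMAD7 from -0.30 to -0.06, and 0 of the 9 gene values passed 1.5-fold in any setting. Brightness limits TGFB1 and SMAD7, which have no bright probe.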
